A study of Drosophila melanogaster with 3 samples.

Results

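The Enhancer of split bHLH genes are the 7 genes E(spl)mdelta-HLH, E(spl)mgamma-HLH, E(spl)mbeta-HLH, E(spl)m3-HLH, E(spl)m5-HLH, E(spl)m7-HLH and E(spl)m8-HLH, out of 13945 protein-coding genes on the 6 chromosome arms. They were taken by gene symbol from the Ensembl annotation of the dm6 genome, and all 7 were matched. Every position of strongest Nf-YC binding (a summit) from 10 kb before the first member to 10 kb after the last, at chr3R:25987621-26051008, was then read from each peak list. The rule used no measured value, although the members were chosen with earlier results of these data known. The samples were 3 biological replicates of whole Drosophila melanogaster embryos of mixed sex, aged 0 to 18 hours. All came from 1 transgenic line whose Nf-YC carries eGFP at its C terminus, and the tagged protein was precipitated with anti-GFP. The samples form 1 group, with no untagged or untreated embryos analysed here, so nothing below is a contrast between conditions. Whole embryos mix all tissues, so a summit does not tell in which cells binding took place.

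Nf-YC is a subunit of NF-Y, a trimeric transcription factor that recognises CCAAT boxes. The Enhancer of split bHLH proteins are transcriptional repressors of the Hes family, and they recruit the corepressor Groucho, encoded by gro at the end of the cluster. When Notch is activated by a ligand, its intracellular domain joins the DNA-binding protein Su(H) and switches these genes on. Their proteins then repress proneural genes, which keeps cells next to a neural precursor from taking the same fate. The cluster also holds Bearded family genes, whose products inhibit the ubiquitin ligase Neuralized, and Kaz-m1, which encodes a protein with a protease inhibitor domain.

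The members lie within 43.4 kb of chromosome arm 3R, from 25997621 to 26041008. Each is a short gene of 1 exon, 769 to 1305 bp long, with a single annotated transcription start site (TSS). E(spl)mbeta-HLH and E(spl)m5-HLH are on the minus strand and the other 5 are on the plus strand. In order of coordinate, E(spl)mdelta-HLH (FBgn0002734) is at chr3R:25997621-25998633 and E(spl)mgamma-HLH (FBgn0002735) at chr3R:25999851-26000761. E(spl)mbeta-HLH (FBgn0002733) follows at chr3R:26005046-26006023 and E(spl)m3-HLH (FBgn0002609) at chr3R:26021823-26023127. E(spl)m5-HLH (FBgn0002631) is at chr3R:26028854-26029735, E(spl)m7-HLH (FBgn0002633) at chr3R:26037038-26038019 and E(spl)m8-HLH (FBgn0000591) at chr3R:26040240-26041008. The region with its flanks holds 16 protein-coding and 6 noncoding RNA genes, and 45.2% of its bases lie outside every annotated gene. Without the flanks, that share is 62.5%.

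The sequences below carry the strongest site of the cluster and the strongest summit within 500 bp of the TSS of each member that had one in the pooled list. Each runs 100 bp either side of the summit, 5′ to 3′ on the member's strand, and ends before the start site. Capitals mark CCAAT, the Su(H) core (GTGGGAA or GTGAGAA), the proneural E box (GCAGCTG or GCAGGTG), the N box bound by Hes proteins (CACNAG) and the GA repeat (GAGAG), on either strand. None of these motifs contains another, and overlapping copies of GAGAG were each counted. The sequence is that of the RefSeq Release 6 genome.

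summit 861 bp upstream of E(spl)m3-HLH, chr3R:26020862-26021062 (plus strand): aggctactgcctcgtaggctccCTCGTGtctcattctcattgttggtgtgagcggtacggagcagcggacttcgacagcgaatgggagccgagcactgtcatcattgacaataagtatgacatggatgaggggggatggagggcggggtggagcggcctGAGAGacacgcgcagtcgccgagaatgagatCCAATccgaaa

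E(spl)m3-HLH promoter summit, chr3R:26021606-26021806 (plus strand): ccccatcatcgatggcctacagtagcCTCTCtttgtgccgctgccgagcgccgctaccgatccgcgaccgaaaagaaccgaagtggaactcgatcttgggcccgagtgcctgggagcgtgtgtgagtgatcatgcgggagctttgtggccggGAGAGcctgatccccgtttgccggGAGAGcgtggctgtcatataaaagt

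E(spl)mbeta-HLH promoter summit, chr3R:26006070-26006270 (minus strand): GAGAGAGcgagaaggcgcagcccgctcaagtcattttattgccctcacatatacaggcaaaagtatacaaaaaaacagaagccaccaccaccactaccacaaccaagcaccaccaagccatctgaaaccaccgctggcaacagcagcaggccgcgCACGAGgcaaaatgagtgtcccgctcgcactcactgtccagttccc

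E(spl)m7-HLH promoter summit, chr3R:26036577-26036777 (plus strand): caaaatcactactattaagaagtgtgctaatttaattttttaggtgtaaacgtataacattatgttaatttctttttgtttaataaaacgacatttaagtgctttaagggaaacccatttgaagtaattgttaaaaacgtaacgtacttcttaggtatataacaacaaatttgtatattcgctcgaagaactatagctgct

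E(spl)mdelta-HLH promoter summit, chr3R:25997209-25997409 (plus strand): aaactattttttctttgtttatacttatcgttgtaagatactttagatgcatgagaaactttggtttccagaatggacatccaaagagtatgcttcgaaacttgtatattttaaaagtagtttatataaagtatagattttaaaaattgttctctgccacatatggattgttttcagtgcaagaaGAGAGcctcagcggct

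E(spl)mgamma-HLH promoter summit, chr3R:25999496-25999696 (plus strand): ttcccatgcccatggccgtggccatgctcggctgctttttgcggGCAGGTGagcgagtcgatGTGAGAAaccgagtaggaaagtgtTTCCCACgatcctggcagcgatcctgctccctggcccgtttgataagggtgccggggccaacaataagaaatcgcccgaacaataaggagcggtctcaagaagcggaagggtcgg

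E(spl)m8-HLH promoter summit, chr3R:26039824-26040024 (plus strand): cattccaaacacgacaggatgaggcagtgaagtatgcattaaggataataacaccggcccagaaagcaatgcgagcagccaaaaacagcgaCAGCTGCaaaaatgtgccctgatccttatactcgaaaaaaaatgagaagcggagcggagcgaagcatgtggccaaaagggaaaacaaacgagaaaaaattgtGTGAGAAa

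The strongest summit was not at a member's promoter but 861 bp upstream of E(spl)m3-HLH, at position 26020962, inside the exon of the noncoding RNA gene lncRNA:CR43644. The start site of that noncoding gene, at 26021076 on the minus strand, is within 500 bp of the summit. Offsets and calls here use the start sites of protein-coding genes only. The summit was the top one of the region in each list. Its signal, the authors' score of peak strength, was 4477, 3334 and 2250 in replicates 1, 2 and 3, a mean of 3354 ± 1113 (SD, n = 3), and 10047 in the pooled list. It ranked 149, 139 and 177 among the 30000 peaks of each replicate list. The next strongest summit of the region was 10.6, 11.1 and 11.3 times weaker in the same lists. Signals were not scaled between lists. Divided by the median signal of its own list, this summit had 72.7, 73.6 and 77.5, so the 3 lists lay close together on that scale. The summit moved by 0, 0 and 11 bp between the pooled list and the replicates. It accounted for 65.5% of the summed signal of the thresholded summits in the region.

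**Figure D1:**
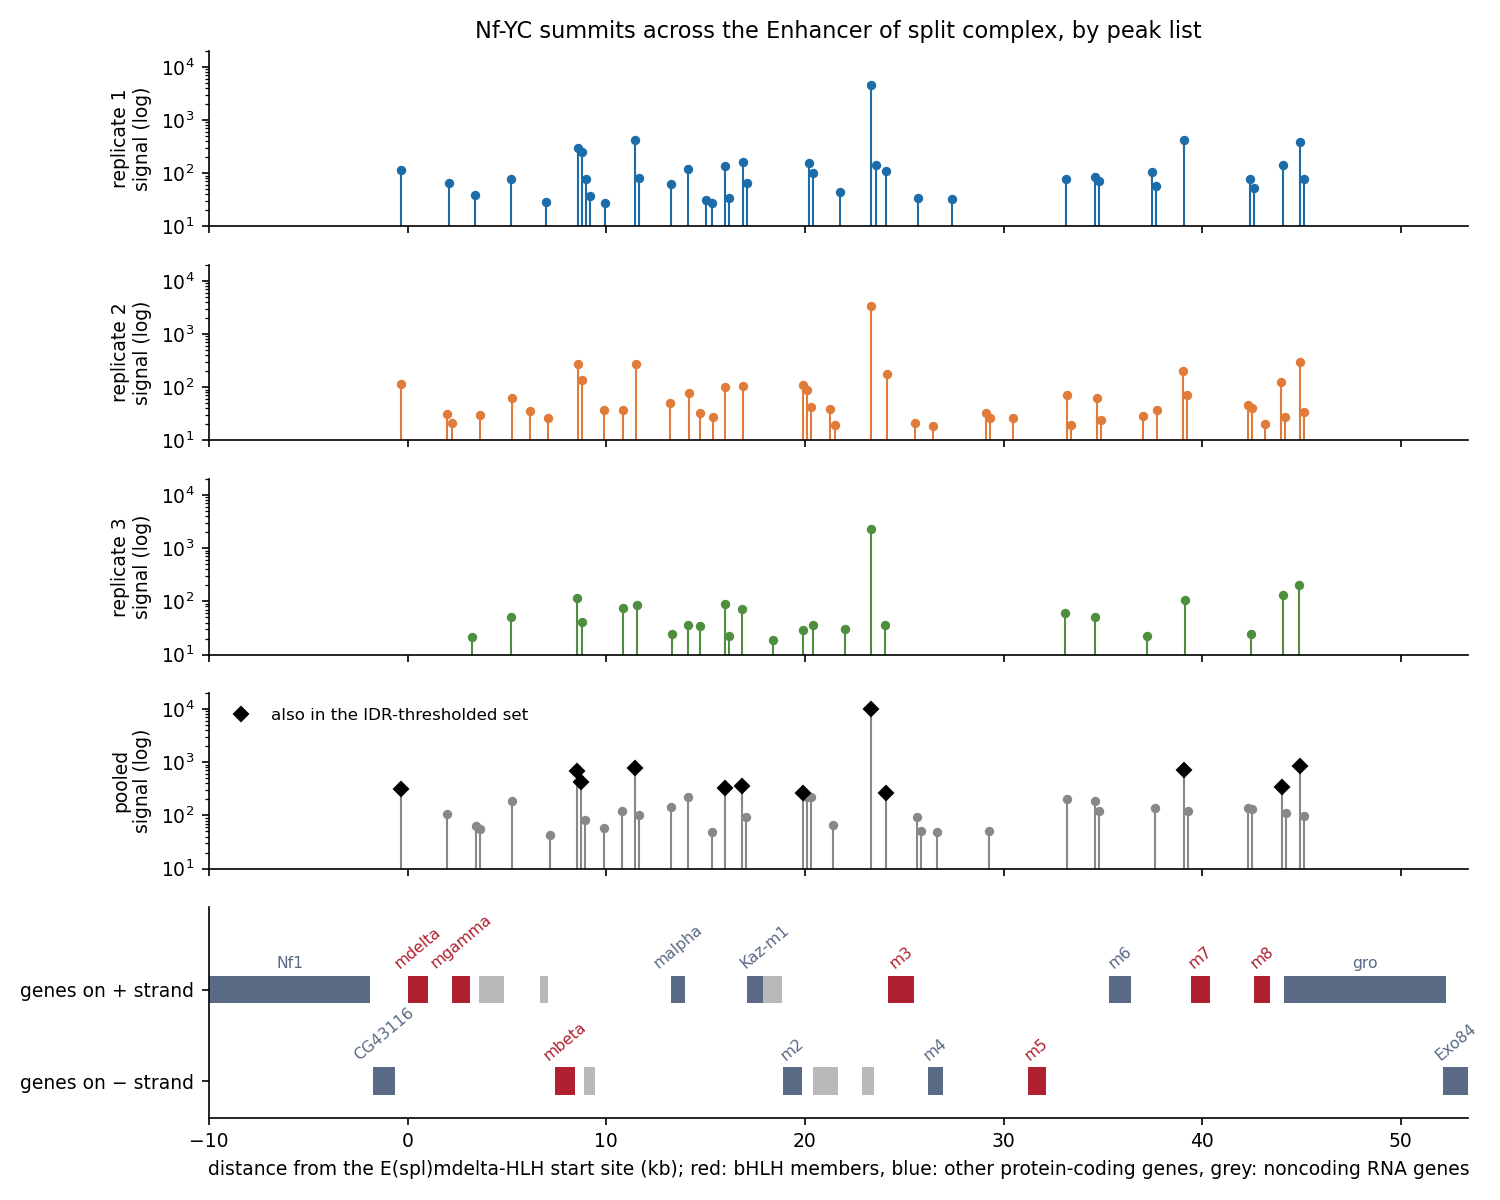
Signal of every Nf-YC summit (log axis, the authors' score) in the 3 replicate lists and the pooled list against distance in kb from the E(spl)mdelta-HLH start site, with the genes drawn below by strand; black diamonds are pooled summits that are also in the thresholded set. The summit at 861 bp upstream of E(spl)m3-HLH stands above all others in each list, and no diamond falls between the promoter summits of E(spl)m3-HLH and E(spl)m7-HLH.

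The thresholded set is the list of 7476 peaks that the authors kept by irreproducible discovery rate (IDR), and 12 of its summits lay in the region. The full pooled list had 41 there, and the lists of replicates 1, 2 and 3 had 39, 45 and 25. By signal, the weakest of the 12 ranked 7081 in both the thresholded set and the pooled list. Down to that rank the set thus held the strongest pooled peaks, and a peak in it need not be in every replicate list. Of the 12 thresholded summits, 10 were intergenic, against 41.5% of all 7476. The other 2 were in the exon of lncRNA:CR43644 and in an intron of gro. Intergenic here means outside every annotated gene, so it includes promoter sequence upstream of a TSS. Of the 12, 9 lay within 500 bp of a protein-coding TSS, a count for which no share of the whole set is given here. In the pooled list 32 of 41 were intergenic, against 31.5% of all pooled summits. The gene bodies of the members, which make up 10.8% of the region, held 0 pooled summits, and replicates 1 and 2 each had 1 summit there. No share of all summits in gene bodies of this kind is given here. A stretch of 14971 bp between the summits at E(spl)m3-HLH and E(spl)m7-HLH had no thresholded summit. It holds E(spl)m4-BFM, E(spl)m5-HLH and E(spl)m6-BFM. The pooled list was not empty there, and its strongest summit in the stretch had a signal of 202 at 1052 bp upstream of E(spl)m5-HLH. That was under the lowest thresholded signal of 246. Over all 6 arms the thresholded set held 0.0558 summits per kb, and how common gaps of this length are was not counted.

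Of the 7 members, 4 had a thresholded summit within 500 bp of the TSS: E(spl)mdelta-HLH, E(spl)mbeta-HLH, E(spl)m3-HLH and E(spl)m7-HLH. By the same rule, 30.6% of all protein-coding genes were called bound, and the members' share depended on the window. Within 250 bp, 2 of 7 were called, E(spl)mbeta-HLH and E(spl)m3-HLH, against 26.2% of all genes, a share near the background. Within 1000 bp the same 4 members as within 500 bp were called, against 33.7% of all genes. In the pooled list, 6 of 7 members had a summit within 500 bp, against 46.1% of all genes. In the full lists of replicates 1, 2 and 3, the counts were 6, 6 and 4, against 47.3%, 48.7% and 48.9%. Sets that left out 1 replicate could not use IDR. They took pooled summits matched among the 7476 strongest of both other replicates. Whichever replicate was left out, 2 members were called, E(spl)mbeta-HLH and E(spl)m7-HLH. No set of all 3 replicates was made by that rule, so the change of rule and the missing replicate cannot be told apart. These sets called 22.0%, 21.5% and 23.8% of all genes without replicates 1, 2 and 3.

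At E(spl)m7-HLH, a Hes repressor gene next to E(spl)m8-HLH, the summit lay 361 bp upstream of the TSS. Its signal was 423, 206 and 105 in replicates 1, 2 and 3, a mean of 245 ± 162 (SD, n = 3), and it ranked 1731, 2703 and 3745. Replicate 1 gave the highest value and replicate 3 the lowest, and without replicate 1 the mean was 156. A weaker pooled summit, with a signal of 120, lay 157 bp upstream.

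E(spl)mbeta-HLH had thresholded summits 147 and 346 bp upstream of its TSS, and was the only member with more than 1 inside 500 bp. The nearer one had 294, 274 and 116 in replicates 1, 2 and 3, a mean of 228 ± 97.9 (SD, n = 3). The farther one had 254, 135 and 41.6, a mean of 144 ± 107 (SD, n = 3), or 88.1 without replicate 1. The nearer summit was the stronger in each replicate. They are 199 bp apart, which is also the smallest gap between neighbouring summits anywhere in the pooled list, so whether they mark separate binding sites was not tested.

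The E(spl)mdelta-HLH summit, 312 bp upstream, was found in replicates 1 and 2 only. It had 112 and 115 there, a mean of 114 ± 2.18 (SD, n = 2), and ranked 8528 and 5762. In replicate 3 the nearest summit was 3253 bp from the TSS. This summit lies between divergent genes, 313 bp from the TSS of CG43116 on the minus strand, so the list does not tell which promoter it belongs to. No other member's promoter summit was within 500 bp of the TSS of another protein-coding gene. The summit 117 bp upstream of E(spl)m3-HLH had 108, 178 and 36.2 in replicates 1, 2 and 3, a mean of 107 ± 70.9 (SD, n = 3). It belongs to the same 1686 bp peak as the strong summit 861 bp upstream, and was weaker than that one in every list.

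The other members had no thresholded summit within 500 bp. At E(spl)m8-HLH, the gene next to gro, the strongest summit within 500 bp had 76.3, 47.0 and 24.5 in replicates 1, 2 and 3. These lay 200, 314 and 145 bp upstream, so the position was not the same in the 3 lists, and the pooled signal of 139 was under the lowest thresholded one. At E(spl)mgamma-HLH the values were 64.2 and 31.3 in replicates 1 and 2, and replicate 3 had no summit closer than 1023 bp. E(spl)m5-HLH had no summit within 500 bp in any list. Its nearest ones had 77.2, 71.8 and 59.4 in replicates 1, 2 and 3, at 1047, 1071 and 960 bp upstream.

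**Figure D2:**
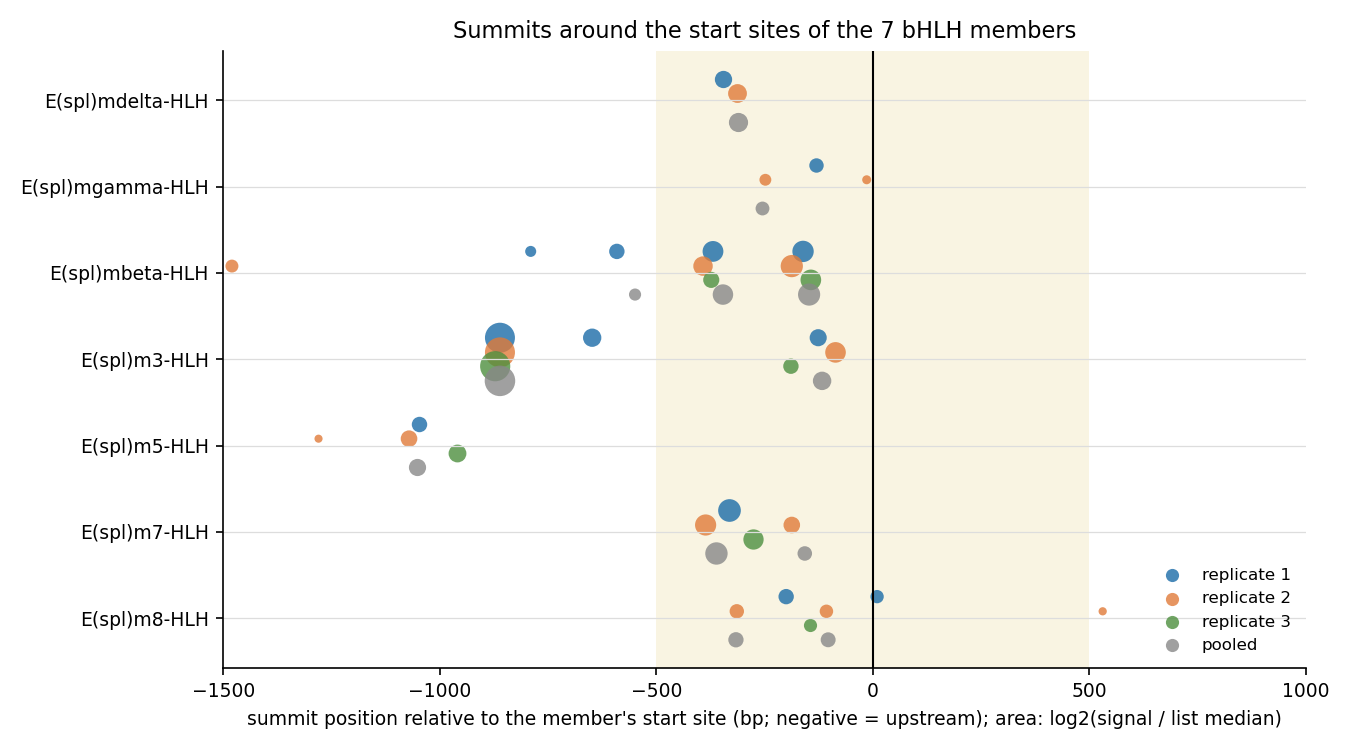
Position of summits relative to the start site of each member (bp, negative is upstream) in the 3 replicate lists and the pooled list; the area of a point grows with the log2 of its signal over the median of its list, and the shaded band is 500 bp either side. Summits inside the band lie upstream except 1 in replicate 1 at 10 bp downstream of E(spl)m8-HLH, and E(spl)m5-HLH has none inside it.

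By mean replicate signal at the pooled promoter summit, the order of the members was E(spl)m7-HLH, E(spl)mbeta-HLH, E(spl)mdelta-HLH, E(spl)m3-HLH, E(spl)m8-HLH and E(spl)mgamma-HLH. The last 2 rest on replicate 2 alone, the one list with a summit within 100 bp of the pooled one. E(spl)m7-HLH and E(spl)mbeta-HLH did not differ beyond their spread. Replicate 1 put E(spl)m7-HLH first and replicates 2 and 3 put E(spl)mbeta-HLH first, and without replicate 1 their order turned round. E(spl)mdelta-HLH and E(spl)m3-HLH changed places when replicate 3 was left out or when signals were divided by the list median. E(spl)m3-HLH was under both E(spl)m7-HLH and E(spl)mbeta-HLH in each of the 3 lists. With 3 lists from 1 group, no test was run on these differences.

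Of the 12 thresholded summits, 10 had a summit within 100 bp in all 3 replicate lists, against 80.9% of the whole set, a share near the background. The exceptions were the E(spl)mdelta-HLH summit, absent from replicate 3, and the summit 42 bp upstream of E(spl)m2-BFM, absent from replicate 1. Of the 41 pooled summits, 17 were matched in all 3 lists, against 34.3% of all 30000, and 4 were matched in none. Across thresholded sites of the region, Spearman's rho of the signals was 0.755 between replicates 1 and 2 (11 sites), 0.552 between 1 and 3 (10 sites) and 0.573 between 2 and 3 (11 sites). Without the strongest site it was 0.673, 0.383 and 0.430. These are descriptions over neighbouring sites that share a library and were chosen from the pooled signal.

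**Figure D3:**
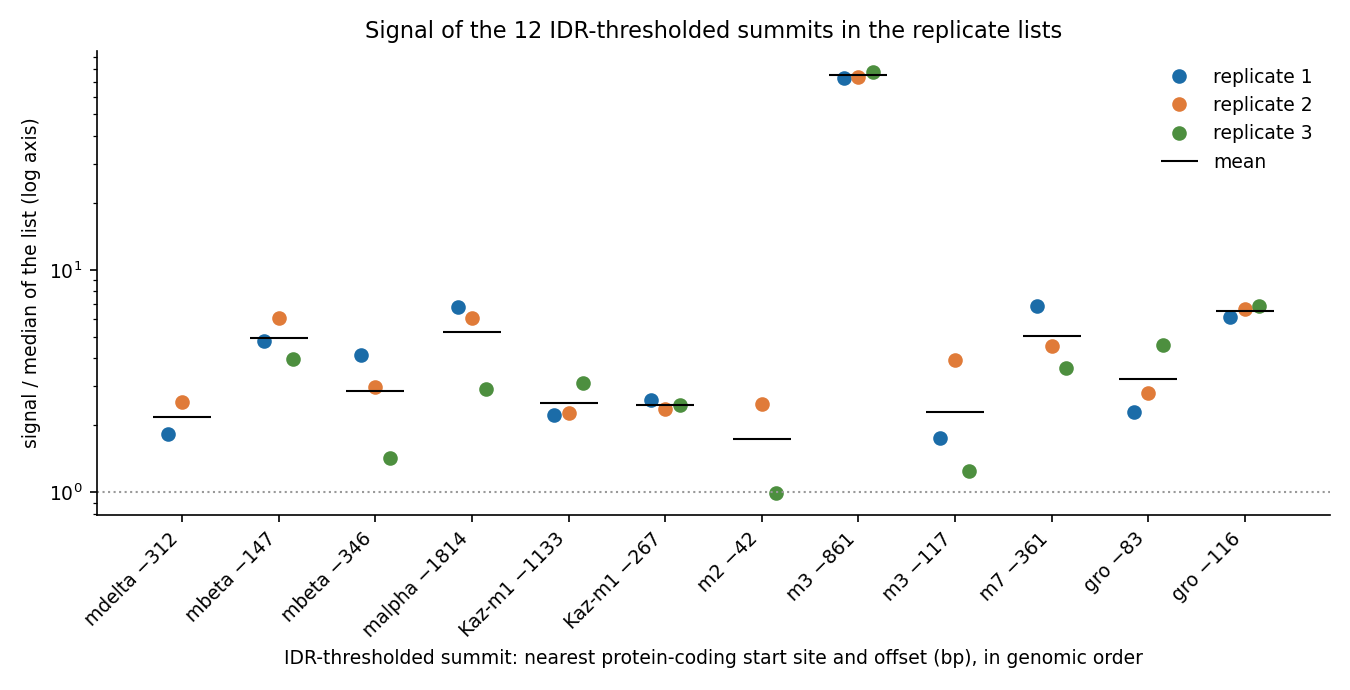
Signal divided by the median signal of its list (log axis) for the 12 thresholded summits in genomic order, labelled by the nearest protein-coding start site and the offset in bp; points are replicates, bars are their means, and the dotted line is the list median. The summit 861 bp upstream of E(spl)m3-HLH lies at 72.7 to 77.5 and the other 11 between 0.989 and 6.88.

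Of the 6 other genes of the cluster, 3 were called in the thresholded set, against 30.6% of all genes and beside 4 of 7 members. Next to E(spl)m8-HLH, gro had thresholded summits 83 bp upstream of its first TSS and 116 bp upstream of a downstream TSS, in an intron. The intronic one had 377, 301 and 200 in replicates 1, 2 and 3, a mean of 293 ± 88.9 (SD, n = 3). The one at the first TSS had 141, 126 and 134, a mean of 134 ± 7.40 (SD, n = 3). Divided by the list medians, these values were 2.29, 2.79 and 4.61, so the replicates lay close together only in the unscaled signal. Kaz-m1 had a thresholded summit 267 bp upstream, with 160, 107 and 71.8 in replicates 1, 2 and 3. E(spl)m2-BFM had one 42 bp upstream, with 113 and 28.7 in replicates 2 and 3, while replicate 1 had 154 at 370 bp upstream. The Bearded family genes E(spl)malpha-BFM, E(spl)m4-BFM and E(spl)m6-BFM had none within 500 bp. In the pooled list all 6 had a summit there, against 46.1% of all genes, with signals of 141, 49.1 and 122 at these 3 genes.

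Other thresholded summits of the cluster lay away from the members. One was 1814 bp upstream of E(spl)malpha-BFM, between it and E(spl)mbeta-HLH, with 419, 275 and 84.8 in replicates 1, 2 and 3 and a mean of 260 ± 168 (SD, n = 3). Another was 1133 bp upstream of Kaz-m1, with 136, 103 and 89.8 and a mean of 110 ± 24.0 (SD, n = 3). Their pooled signals of 765 and 326 compare with 266 to 712 at the strongest thresholded promoter summits of the 4 members.

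CCAAT was found within 100 bp of 3 of the 12 thresholded summits, against 38.1% of all thresholded summits and 35.2% of promoters (the 201 bp before the TSS). In the pooled list it was found at 13 of 41, against 35.1% of all pooled summits. The thresholded ones were the strong summit upstream of E(spl)m3-HLH, where CCAAT was centred 92 bp away, the summit 1133 bp upstream of Kaz-m1, with copies 16 and 81 bp away, and the intronic summit of gro, with 1 copy 69 bp away. The summits within 500 bp of a member's TSS had none in that window. Over the 500 bp upstream of the TSS, CCAAT was present at 3 of 7 members, against 65.8% of all protein-coding genes. It lay 199 bp upstream of E(spl)mdelta-HLH, 351 bp upstream of E(spl)m3-HLH, and 325 and 332 bp upstream of E(spl)m5-HLH, the member with no promoter summit.

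The Su(H) core was in the upstream 500 bp of 4 of 7 members, against 10.2% of all genes. E(spl)mgamma-HLH had 3 copies, E(spl)m5-HLH and E(spl)m8-HLH had 2 each, and E(spl)mbeta-HLH had 1. Of these 4, E(spl)mbeta-HLH was the one with a thresholded summit in the same window, and its copy lay 57 bp from the farther summit. That was the only Su(H) core within 100 bp of the 12 thresholded summits, against 4.99% of all such summits. In the pooled list 6 of 41 summits of the region had one, against 4.63% of all pooled summits. At E(spl)mgamma-HLH, the weak pooled summit had Su(H) cores centred 11 and 35 bp upstream of it and an E box 53 bp upstream, as its printed sequence shows.

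The proneural E box was upstream of 3 of 7 members (14.5% of all genes): E(spl)mgamma-HLH, E(spl)m7-HLH and E(spl)m8-HLH had 2 copies each. At E(spl)m8-HLH 1 copy was centred 6 bp from the pooled summit. It was within 100 bp of 0 of the 12 thresholded summits, against 5.59% of all thresholded ones, and of 6 of the 41 pooled summits, against 6.34% of all pooled ones. The N box was upstream of 4 members (43.4% of all genes) and within 100 bp of 3 of the 12 (22.5% of all thresholded summits) and 9 of the 41 (21.9% of all pooled ones). The GA repeat was upstream of 5 members (41.0% of all genes) and within 100 bp of 5 of the 12 (31.7% of all thresholded summits) and 17 of the 41 (27.6% of all pooled ones). The printed E(spl)m7-HLH sequence holds none of the 5 motifs and is 27.4% G and C, while that at the E(spl)m3-HLH promoter is 60.2% and has 3 GA repeats. Over the 12 windows the G and C content ran from 24.9% to 60.2% with a mean of 44.8%, against 41.0% over the whole set.

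Summits were dense in the complex, and so were genes. The region has 16 protein-coding genes in 63.4 kb, against 13945 in 133881 kb over all 6 arms. How far the density of summits goes with that of genes was not tested. The region held 0.189 thresholded summits per kb, against 0.0558 over all 6 arms. In the lists of replicates 1, 2 and 3 it held 0.615, 0.710 and 0.394 per kb, against 0.224 over all arms in each, since each list has 30000 peaks. The Iroquois and NK homeobox complexes, which also are clusters of transcription factor genes, held 0.134 and 0.202 thresholded summits per kb. Their strongest pooled signals were 49896 and 34796, above the 10047 of the Enhancer of split complex. The achaete-scute complex of proneural genes, which Enhancer of split proteins repress, held 0 thresholded and 0 pooled summits in 113 kb. Replicate 3 alone had 5 summits there, with signals of up to 23.5. No test was run between complexes, and the values depend on the span given to each.

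**Figure D4:**
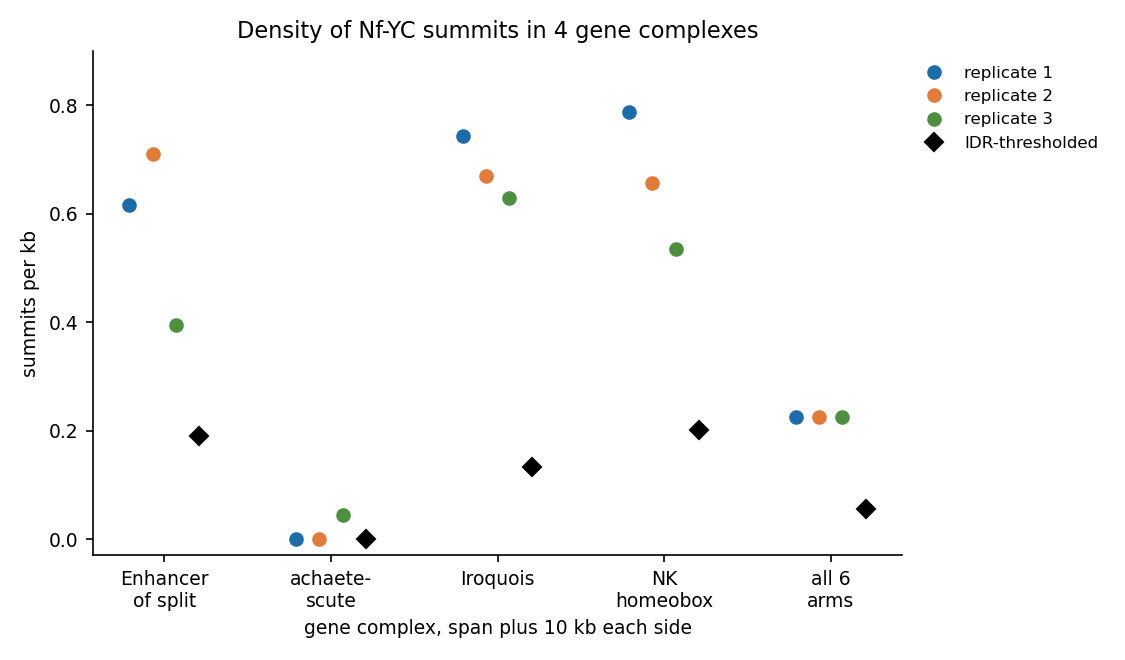
Summits per kb in the span of each complex plus 10 kb either side, in the 3 replicate lists and the thresholded set, with all 6 arms at the right. The Enhancer of split complex has 0.394 to 0.710 per kb in the replicate lists, all above the 0.224 of the arms, and the achaete-scute complex has 0.0442 or less.

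In the rest of the pathway, 10 of 19 Notch pathway genes were called in the thresholded set, against 30.6% of all genes. The strongest peaks were at Ser, which encodes a Notch ligand, fng, a glycosyltransferase that modifies Notch, numb, an inhibitor of Notch, and aph-1, a subunit of the gamma-secretase. Their pooled signals were 2657, 1635, 1587 and 1503, each above every promoter summit of the 7 members. Those not called included CtBP, Delta, dx and H. H, Nct and Su(H) had no summit within 500 bp in any list, while CtBP and dx had one in every replicate list and in the pooled list. Among the 6 Hes family genes outside the cluster, 2 (33.3%) were called, a share near the 30.6% of all genes. These were Hey (also in the Notch list) and hry, with pooled signals of 1480 and 1395, while cwo, dpn, Hesr and Sidpn were not called. Of 9 genes listed as proneural, which include the partner da and the antagonist emc, 3 (33.3%) were called, also near the share of all genes. They were emc, ato and da, at 4194, 3513 and 472. The genes ac, amos, ase and cato were among the other 6. Of the Bearded family outside the cluster, 4 of 6 symbols were matched and 3 of these 4 were called, against 30.6% of all genes. Tom, Brd and Ocho had 2727, 804 and 633, and BobA had none.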

How the data were processed

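The data are ChIP-seq peak lists of eGFP-tagged Nf-YC from 3 replicates of whole embryos, with 1 list per replicate, 1 on all replicates pooled and 1 thresholded by IDR. Per the file records the authors deposited, each replicate list came from that replicate's alignments and a control alignment. The build is dm6. For aligner, peak caller and IDR threshold, names and settings were not given in the sources used here. Per peak, the authors' signal is a score of unstated unit, not scaled between lists (medians 61.6, 45.3 and 29.0 in replicates 1, 2 and 3). The deposited −log10 q-value saturates and was not used. No read counts were used, so depth is unknown and no interval is given.

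Summits were taken as the start plus the deposited offset, 1-based, with Python 3.11.15 and pandas 2.3.3, on the Release 6 genome and the Ensembl release 115 annotation (BDGP 6.54). Protein-coding genes with at least 1 summit no more than 500 bp from one of their start sites counted as bound. Summits within 100 bp were matched between lists. Named genes were the members, the other cluster genes, the genes whose TSS is nearest to a summit of the region, and, for each other list, up to 4 bound genes by signal and up to 4 unbound ones by alphabet. Su(H) and Nct were named outside that rule, after their values were seen. Members and lists were chosen with earlier results of these data known. No test was run, since there is 1 group. The calling and motif functions were tested on simulated data.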

Additional observations from a re-analysis of the deposited data

How the results depend on the processing

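Windows, peak sets, flanks, matching distances and left-out replicates were varied. The number of bound members was 2 within 250 bp (26.2% of all genes, near the members' share) and 2 in the stronger 50% of the thresholded set by signal (17.7% of all genes), against 4. It was also 2 without each replicate in turn, where the rule differed from IDR as described above. The full pooled list raised the other cluster genes to 6 from 3 and the Hes family outside the cluster to 4 from 2. The share of all genes rose as well, to 46.1% from 30.6%. Summits in the region numbered 41 in the pooled list and 39, 45 and 25 in replicates 1, 2 and 3, or 0.647, 0.615, 0.710 and 0.394 per kb, against 12 and 0.189 in the thresholded set. Within 50 and 250 bp of the thresholded summits, CCAAT was found at 1 and 8 of 12, the Su(H) core at 0 and 4, the N box at 0 and 6 and the GA repeat at 0 and 9. The E box was found at 2 within 250 bp. The longer the window, the more often any motif falls in it. The remaining 53 alternatives for counts, densities and orders stayed within 1.5 times the reported value, with an order scored by the number of members that kept their place. Orders did change within that limit. By mean rank, by median-scaled signal and without replicate 1 or 3, 4 of 6 members kept their place. E(spl)mbeta-HLH came first by mean rank and without replicate 1, and without replicate 2 only 4 members could be ordered. Signals of single members moved too. Matching within 200 bp took the mean at E(spl)mgamma-HLH to 47.7 from 31.3 and at E(spl)m8-HLH to 49.3 from 47.0. Scaling by the list median took E(spl)mdelta-HLH to 99.1 from 114. Without replicate 1, the mean signal was 156, against 245, at E(spl)m7-HLH and 88.1, against 144, at the farther E(spl)mbeta-HLH summit, a check of the E(spl)mbeta-HLH site that was chosen after seeing the data. No paired analysis was possible because there is 1 group. Without read counts, a summit missing from a list cannot be told from a shallower library. Replicate 3, with the lowest median signal, had the fewest summits in the region.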

Other observations

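The spacing of neighbouring summits differed between lists. In the pooled list, 13 of 40 gaps between neighbouring summits of the region were 190 to 220 bp long, against 18.2% of all gaps in that list. The smallest gap was 199 bp both in the region and over the whole pooled list. The counts were 11 of 38, 11 of 44 and 1 of 24 gaps in replicates 1, 2 and 3, against 20.1%, 17.2% and 10.2% of all gaps. In the thresholded set it was 1 of 11, against 10.2% of all gaps, so replicate 3 and the thresholded set did not show the pooled list's excess. Counts of summits in the region include pairs at this spacing, and their part in the densities was not tested. Many peaks also had 1 fixed width: 25 of the 41 pooled peaks of the region were 480 bp wide, as were 76.3% of the whole list, while 0 of the 12 thresholded ones were, against 22.3% of the whole thresholded set.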
